A study of Mus musculus with 4 samples.

Results

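GCimm1 is the first of the 2 clusters of immature granule cells that the study placed between the neuroblasts (NB1 and NB2) and the young granule cells (GCyoung) of the adult mouse dentate gyrus. Its nuclei were taken from the cluster line of the deposited table, and those labelled 2 weeks (w2, 1933 nuclei) and 4 weeks (w4, 379 nuclei) after Cre induction were set against each other, 2312 of the 14367 nuclei kept in all 4 libraries. The comparison asks how far nuclei of one stage differed when that stage was reached early or late.

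Adult-born granule cells leave the neural stem cell pool (radial glia-like cells, RGL), pass through dividing progenitors and postmitotic neuroblasts, and then grow a dendrite and a mossy fibre axon while they still express SoxC transcription factors and the calcium-binding protein calretinin (Calb2). They do so at different speeds, so that a labelled cohort holds cells of several stages on any day. As they mature, calretinin gives way to calbindin (Calb1), and glutamatergic input and output synapses are formed.

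All mice were young-adult males and females that carried a tamoxifen-inducible CreERT2 and the reporter CAGfloxStop-Sun1/sfGFP and were given tamoxifen, so that nuclei of recombined cells and of their progeny carried Sun1/sfGFP in the nuclear envelope and could be sorted. Recombination marks no moment of birth for each neuron, so a w4 nucleus can come from a cell born after induction. Each week was 1 library from the left dentate gyri of 4 pooled mice. No test between weeks could therefore be made, and every interval below covers counting error only and not the spread between animals. Nuclear RNA was measured, and a lower level in a nucleus and fewer nuclei with the transcript cannot be told apart from summed counts.

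The GCimm1 nuclei held 10945220 UMIs (unique molecular identifiers, 1 for each captured RNA molecule) in w2 and 1624674 in w4. A w2 nucleus had a median of 5290 UMIs and 2489 detected features, against 3841 and 1969 in w4. With nuclei thinned to 2000 UMIs (2 shallower ones of w2 left out), the median was 1249 features in w2 and 1210 in w4. Only 1 barcode occurred in both sets of nuclei. By their UMIs of Ddx3y, Uty and Eif2s3y against Xist and Tsix, 459 nuclei of w2 were called male and 1381 female, a male share of 24.9% (exact 95% interval 23.0 to 27.0%), and 95 and 245 of w4, or 27.9% (23.2 to 33.0%). The RGL of the same libraries were 64.9% male in w2 and 10% in w4, so values of RGL given below also set mostly male against mostly female nuclei. Genes of the X and Y chromosomes are otherwise left out, doublecortin among them.

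Nuclei of w4 lay slightly further along the maturation axis than those of w2. The deposited pseudo-time, a position along the path from RGL to mature granule cells without a unit, had a median of 15.7 in the 129 GCimm1 nuclei of w1, 16.9 in w2 and 17.1 in w4. The quartiles were 16.1 and 17.8 in w2 and 16.5 and 17.9 in w4, so the shift of the median, 0.25, was small beside the width of the cluster, with an interquartile range of 1.71 in w2. Of the w4 nuclei, 63.3% lay above the w2 median (58.3 to 68.2%), 29.3% above its upper quartile and 12.1% below its lower quartile. The w4 set thus lacked early nuclei more than it gained late ones. The shift was uneven between the sexes. Nuclei called male had a median of 16.9 in w2 and 17.7 in w4, a shift of 0.80, and those called female 16.9 and 17.1, a shift of 0.14. Because each pool held only 4 mice, sex and animal cannot be told apart. Before deposit the authors had also left out a group of w4 nuclei, most of which carried male transcripts, so the male share and the male ratios of w4 describe only the nuclei that were kept.

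**Figure D1:**
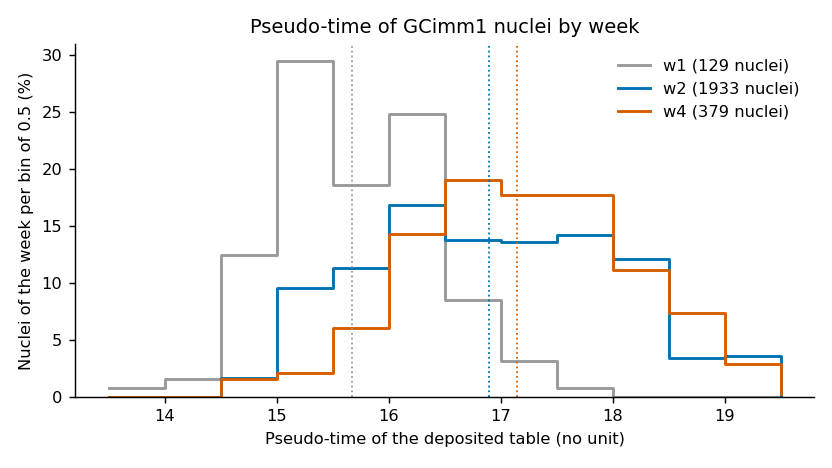
Share of the GCimm1 nuclei of each week (y axis, % per bin of 0.5) along the deposited pseudo-time (x axis, no unit), for w1 in grey, w2 in blue and w4 in orange, with the 3 medians as dotted lines. The w2 and w4 outlines cover the same range and their medians lie at 16.9 and 17.1, while w1 has its median at 15.7.

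All 13 markers of granule cell identity and of the cluster were detected in both weeks, with ratios between 0.711 and 1.14. The nuclei had been clustered on their expression, these genes included, so the like levels describe the set and are no independent check of its name. A ratio here is the CPM in w4 over that in w2, and CPM is the number of UMIs of a gene per 1000000 UMIs of the same nuclei. Prox1, the homeodomain factor that fixes granule cell fate, was read at 806 CPM in w2 and 909 in w4. Sox11, a SoxC factor of immature neurons, was read at 565 and 500 CPM, and Sox4, the other SoxC factor of the list, at 141 and 100. Igfbpl1, a marker of immature neurons, did not differ, at 596 and 595 CPM. Sox4 had the lowest ratio of the list (counting interval 0.601 to 0.836).

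Across the transcriptome the weeks were close. Of 6881 autosomal genes with a mean of at least 20 CPM over both weeks, 95 were at least 1.5 times as high in w4 (1.38%) and 233 at least 1.5 times as low (3.39%), 4.77% in either direction. The median log2 ratio was -0.07, and the 5th and 95th percentiles of the ratio were 0.698 and 1.29. With TMM scaling, which shifted all log2 ratios by 0.05 upward, the counts were 136 and 173, so the excess of lower genes depended in part on the scaling. A gene at the minimum level had about 219 UMIs in w2 and 32.5 in w4, hence single ratios near 1.5 rest on few molecules. Because the minimum was set on the mean of both weeks, a gene could meet it through its higher week alone.

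The same fold was passed by 8.14% of genes in RGL, 15.6% in NB1 and 4.31% in GCimm2 (the immature cluster that follows) between the same libraries, but these clusters differ in depth. With all sums thinned to the 446317 UMIs of the shallowest one, 23.2% of genes were past the fold in GCimm1, 23.2% in RGL, 23.5% in NB1 and 22.5% in GCimm2. GCimm1 had 4.77% at full depth, so counting noise makes up much of these shares. Whether the clusters differed alike between weeks cannot be read from them. By the same measure the step from NB1 to GCimm1 within a week took 32.5% of genes past the fold in w2 and 36.6% in w4, and the step from GCimm1 to GCimm2 took 32.8% and 29.1%. At this depth, chosen after the data had been seen, the contrast between weeks took fewer genes past the fold than either neighbouring step of maturation, with counting noise included in each share. All these comparisons share libraries, and none has replicates.

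**Figure D2:**
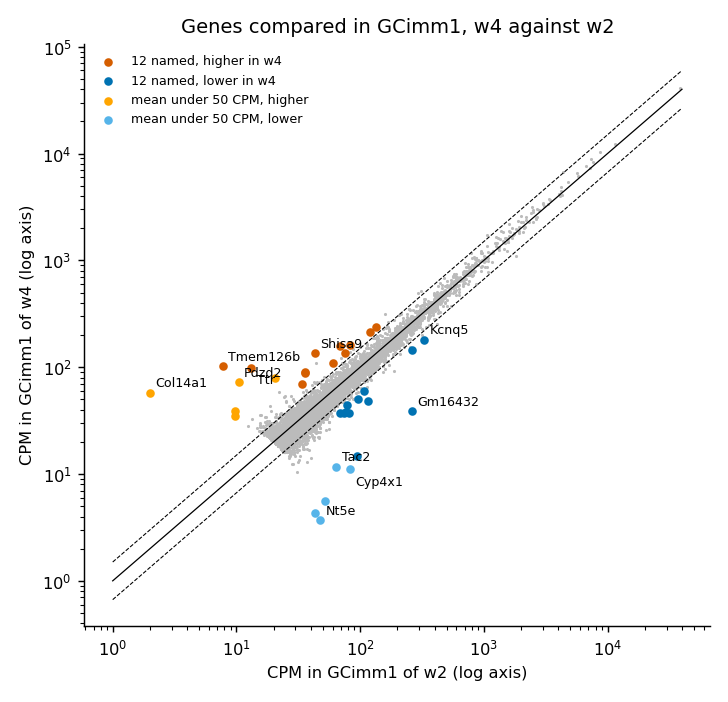
Level of each of the 6881 genes compared in GCimm1 of w2 (x axis, CPM) and w4 (y axis, CPM), both axes logarithmic, with the line of equality and dashed lines at the fold of 1.5. Genes named in the text are coloured, and most grey points lie between the dashed lines, with 95 genes above and 233 below them.

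Of the 12 genes with the largest excess in w4 (mean of at least 50 CPM, same direction in male and in female nuclei), the first 2 were Tmem126b and Ttr. Tmem126b, which encodes a mitochondrial protein needed to assemble respiratory complex I (chromosome 7, 90467438 to 90476001, minus strand, GRCm38), had 85 UMIs in w2 and 166 in w4, or 7.77 and 102 CPM. Its ratio was 13.2 (10.1 to 17.3). At 2000 UMIs per nucleus, 1.76% of w2 nuclei and 17.9% of w4 nuclei had a UMI of it. Other clusters of the same 2 libraries showed it too, with ratios of 5.29 in RGL, 10.8 in NB1 and 11.9 in GCimm2, and in RGL it was read at 11.3, 21.1, 112 and 12.7 CPM in w1, w2, w4 and w8. In RGL, Tmem126b was thus high in w4 alone of the 4 weeks.

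Ttr, the thyroid hormone carrier made in bulk by the choroid plexus, was read at 13.2 CPM in w2 and 97.9 in w4, a ratio of 7.44 (5.90 to 9.39). NB1 and GCimm2 had ratios of 8.43 and 6.89, and RGL, with 117 and 169 CPM, one of 1.44. Other choroid plexus genes were looked up after Ttr had been seen. Enpp2 was read at 3.11 and 7.39 CPM (ratio 2.38, 1.12 to 4.71, with 12 UMIs in w4), Kcnj13 at 6.30 and 4.31 CPM and Kl at 2.19 and 2.46 CPM. Folr1 had 3 and 1 UMIs, Clic6 2 and 1, and Otx2 2 and 0, too few to give a direction. The part of choroid plexus RNA in the level of Ttr was not tested. In w1 GCimm1, Ttr stood at 79.4 CPM, so w2 was the low week of the 3.

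Shisa9, next in size, an auxiliary subunit of AMPA receptors that is rich in the dentate gyrus (chromosome 16, 11984113 to 12270902), was read at 42.9 and 136 CPM, a ratio of 3.17 (2.69 to 3.72). It was higher by 4.20 times in female nuclei and by 1.68 times in male nuclei. C1ql3, a secreted synaptic organiser of the C1q family, was read at 36.0 and 88.6 CPM (ratio 2.46, 2.02 to 2.99). Atp1b1, the beta subunit of the sodium pump, was read at 69.0 and 158 CPM (ratio 2.29, 1.98 to 2.65). Olfm1, a secreted olfactomedin of synapses, stood at 82.2 and 163 CPM. Kirrel3, an adhesion molecule of mossy fibre synapses, stood at 119 and 212 CPM. Epha5, an ephrin receptor of axon guidance, had 60.6 and 110 CPM, with ratios of 3.02 in male and 1.33 in female nuclei. Plxdc2, Pcsk5 (a proprotein convertase), Sez6l and Mcmbp (a partner of the MCM helicase) completed the set with ratios of 2.51, 2.09, 1.81 and 1.77.

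In the GCyoung nuclei of w4, Shisa9 was read at 690 CPM, Epha5 at 999 and Kirrel3 at 2253. C1ql3 had 23.5 CPM in RGL of w2 and 82.5 in RGL of w4 (ratio 3.51), Olfm1 had a ratio of 2.03 there and Atp1b1 one of 1.79, so these 3 were also past the fold in RGL. The same held for Shisa9, with 4 and 19 UMIs (7.44, 2.47 to 30.1), Mcmbp, at 109 and 427 CPM (3.93, 3.37 to 4.60), and Sez6l (1.65, 0.836 to 3.27), besides Tmem126b. Kirrel3, at 116 and 106 CPM in RGL, and Epha5, at 356 and 371 CPM, were not. In NB1 and GCimm2 the ratios were 10.2 and 1.55 for Plxdc2, 4.43 and 0.859 for C1ql3 and 2.55 and 1.53 for Atp1b1. They were 1.77 and 2.04 for Mcmbp, 1.68 and 1.27 for Olfm1 and 0.820 and 1.52 for Shisa9. For Pcsk5 they were 0.808 and 2.28, for Epha5 1.09 and 1.43, for Sez6l 0.951 and 1.11 and for Kirrel3 0.920 and 1.22. Whether RNA released from other nuclei entered these values was not tested.

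The set of 12 genes lower in w4 was led by transcripts that were also lower in RGL. Gm16432 (chromosome 1, 177983423 to 178172704, plus strand), a predicted coding gene, had 2855 UMIs in w2 and 63 in w4, or 261 and 38.8 CPM, and was 6.73-fold lower (5.24 to 8.78). In RGL it was read at 47.0, 367, 68.5 and 60.6 CPM in w1, w2, w4 and w8, and thus stood out in w2. RP23-446O11.1 (chromosome 3, 125216915 to 125219553, minus strand), an unclassified transcript, was read at 95.1 and 14.8 CPM in GCimm1 and at 51.8, 132, 31.7 and 19.1 in RGL. At 2000 UMIs per nucleus, a UMI of Gm16432 was found in 41.8% of w2 and 7.39% of w4 nuclei.

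The remaining 10 of the lower set behaved differently from one another outside GCimm1, and several were lower in RGL, NB1 and GCimm2 as well. Ppp2r2b, a neuronal regulatory subunit of protein phosphatase 2A, was read at 117 and 48.0 CPM and was 2.43-fold lower (1.93 to 3.10), with ratios of 1.01 in RGL, 1.23 in NB1 and 0.429 in GCimm2. Samd5 was likewise lower in GCimm1 and GCimm2 and not in RGL or NB1, with a ratio of 0.495 in GCimm1, 1.35 in RGL, 1.03 in NB1 and 0.231 in GCimm2. Within GCimm1 its ratio was 0.883 in male nuclei (0.560 to 1.34) and 0.355 in female ones. Kcnq5, a subunit of the M-type potassium channel, which damps repetitive firing, was read at 330 and 182 CPM and was 1.82-fold lower (1.61 to 2.06). In GCimm1 of w1 it stood at 208 CPM (174 to 246), so w2 was the high week. Its ratio was 1.37 in RGL, 0.658 in NB1 and 0.766 in GCimm2. Snhg11, a neuronal host transcript of small nucleolar RNAs, was read at 262 and 144 CPM. In GCimm1 of w1 it stood at 39.7 CPM, below both. Gm15594 (81.2 and 37.5 CPM) lies within Cttnbp2 on the opposite strand. Cttnbp2 itself, a cortactin-binding protein of dendritic spines added after its level was seen, had a ratio of 0.604 (0.575 to 0.634), and the strand setting of the counting is not given in the sources used here, so the pair is uncertain. Gm17231 lies opposite Arid3b in the same way. In RGL, NB1 and GCimm2 the ratios were 0.271, 0.485 and 0.679 for Gm15594 and 0.599, 0.792 and 0.751 for Gm17231. In GCimm1 of w1, Gm15594, Gm17231, Ppp2r2b and Samd5 stood at 68.7, 73.3, 198 and 64.1 CPM, above their w4 levels. Atxn2l, Sbf1, Snx32 and Gm12394 had ratios of 0.517, 0.544, 0.559 and 0.561.

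**Figure D3:**
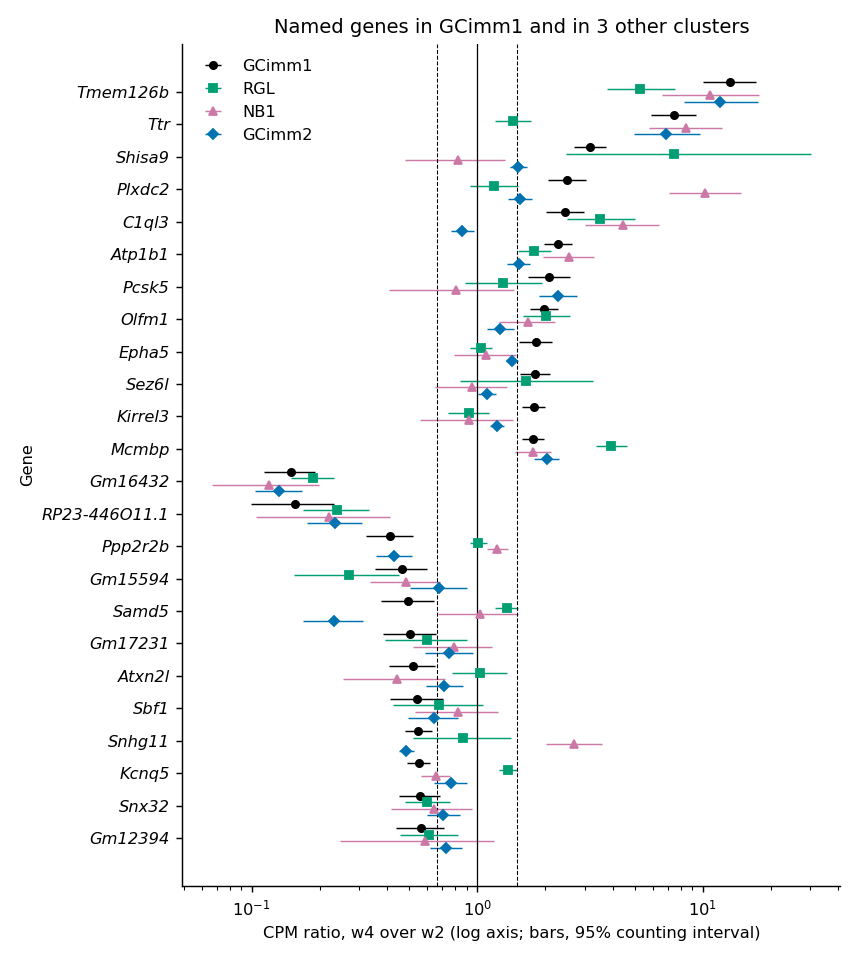
CPM ratio of w4 over w2 (x axis, logarithmic) for the 24 named genes in GCimm1 (black), RGL (green), NB1 (pink) and GCimm2 (blue), with 95% counting intervals as bars and dashed lines at the fold of 1.5. Tmem126b and Gm16432 lie on one side in all 4 clusters, while Ppp2r2b, Samd5 and Snhg11 do not.

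Larger ratios were found among genes under a mean of 50 CPM, of which the 5 furthest in each direction are given here after their values had been seen. Col14a1, a fibril-associated collagen, had 22 UMIs in w2 and 94 in w4, or 2.01 and 57.9 CPM, a ratio of 28.8 (17.9 to 48.1). It was read at 58.9 CPM in RGL of w4, against 1.74 in w1 and 1.88 in w2, and its ratio was 24.7 in NB1 and 87.2 in GCimm2. Pdzd2, Dock10, Myo5b and Scg2 (secretogranin II, a granin of dense-core vesicles) had ratios of 6.97, 3.97, 3.90 and 3.62. Pdzd2 was already abundant in RGL of both weeks, at 162 and 173 CPM. In RGL the ratios of Pdzd2, Dock10, Myo5b and Scg2 were 1.07, 5.88, 1.39 and 2.72. In NB1 and GCimm2 they were 7.16 and 5.19 for Pdzd2 and 2.22 and 1.53 for Dock10. For Myo5b they were 1.53 and 5.53 and for Scg2 2.22 and 1.88, with 3 and 8 UMIs in NB1 of w4.

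In the other direction, Nt5e, the ectoenzyme CD73 that makes extracellular adenosine, had 522 UMIs in w2 and 6 in w4 and was 12.9-fold lower (5.89 to 35.4). The long non-coding 4930532G15Rik was 9.34-fold lower and Cyp4x1, a cytochrome P450 of brain, 7.43-fold lower. In RGL, all 3 were high in w2 alone. The ratios in NB1 and GCimm2 were 0.0889 and 0.0669 for Nt5e and 0.0470 and 0.0736 for 4930532G15Rik. Like Tmem126b and Gm16432, Col14a1 and these 2 genes differed between the libraries in all 4 clusters. So did RP23-446O11.1, with ratios of 0.220 in NB1 and 0.235 in GCimm2, and Cyp4x1, with 0.273 in GCimm2. Mcmbp, Atp1b1, Dock10 and Scg2 were likewise past the fold in all 4 clusters. With 4 mice pooled in each library, week, animal and library cannot be told apart for these genes or for any other. Nt5e was read in RGL at 9.13, 58.3, 3.68 and 3.19 CPM over the 4 weeks, and Cyp4x1 at 106 CPM in w2 and 1.47 in w4. In NB1 of w4, Cyp4x1 had 0 UMIs, which allows up to 6.72 CPM, against 79.7 in w2. Esr1, the oestrogen receptor alpha, was read at 43.3 and 4.31 CPM in GCimm1 and at 16.4 and 3.45 in GCimm2. It was lower in male nuclei (ratio 0.081) and in female nuclei (0.0987) alike, and its w4 level rested on 7 UMIs.

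Tac2, the fifth of these, is a neurokinin B precursor and, with Calb2, a marker of neuroblasts and early immature neurons. It had 705 UMIs in w2 and 19 in w4, or 64.4 and 11.7 CPM, and was 5.51-fold lower (3.50 to 9.20). Calb2 was read at 115 and 65.2 CPM, 1.76-fold lower (1.44 to 2.16). Neither differed in NB1, with ratios of 1.05 and 1.04, and both had a ratio of 0.214 in RGL. In GCimm2 the ratios were 0.231 for Tac2 and 0.638 for Calb2. The 2 markers parted between the sexes. The ratio of Tac2 was 0.173 in male and 0.180 in female nuclei, whereas Calb2 had 72.4 and 96.1 CPM in male nuclei (ratio 1.33, 0.933 to 1.85) and 131 and 49.5 CPM in female nuclei (0.379, 0.279 to 0.503).

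Of the 10 immature neuron markers, 9 could be compared, and Tac2 and Calb2 were the 2 past the fold, both lower (the background is 3.39% of all genes). The median log2 ratio of the list was -0.18. Tac2 met the minimum of 20 CPM only through w2, so the count and the median are not independent of the filter. Elavl2, Tbr1, Klf12, Rgs6, Sox4, Sox11 and Igfbpl1 lay within the fold. Neurod1 was listed at 0 UMIs in both weeks, also in RGL, NB1 and GCimm2. In w2, 9 of the autosomal ribosomal protein genes, which every cell uses, were at 0 as well, so a 0 can also mean a feature that was not counted, and no level is read from it.

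Of 16 mature granule cell markers, 10 were compared, with 3 past the fold upward, 1 downward, 6 within it and a median log2 ratio of 0.26. Over all genes the shares were 1.38% and 3.39%, and the median -0.07. Icam5 and Slc17a7 met the minimum of 20 CPM only through w4, so the upward count and the median are not independent of the filter. Icam5, a dendritic adhesion molecule of the telencephalon, was read at 18.9 and 38.8 CPM (ratio 2.05, 1.52 to 2.73). Slc17a7, the vesicular glutamate transporter VGLUT1, was read at 15.5 and 28.9 CPM (1.86, 1.32 to 2.59). Kirrel3 is given above. Inpp4b, a phosphoinositide phosphatase, was lower at 31.7 and 20.3 CPM. By sex, the ratio of Slc17a7 was 0.684 in male and 2.53 in female nuclei, and that of Inpp4b 0.125 and 0.936. The male values of w4 rested on 7 UMIs of Slc17a7 and 2 of Inpp4b. The male interval of Slc17a7 began at 0.264 and reached past 1, so these counts show no male direction for it. That of Inpp4b was 0.0149 to 0.463. Calb1, at 4.57 and 18.5 CPM, was under the minimum. The more abundant Grin2a (437 and 416 CPM), Camk2a (96.7 and 115 CPM) and Bcl11b (221 and 292 CPM) lay within the fold. Icam5 rested on 63 UMIs of w4 and Slc17a7 on 47, and in RGL their ratios were 4.88 and 2.79, with 170 and 157 CPM in GCyoung of w4. The part of GCyoung RNA in these 2 values was not tested.

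Of 58 axon guidance genes 36 were compared, 3 being higher, 3 lower and the median log2 ratio 0.11, beside 1.38% higher and 3.39% lower over all genes. Slit3, a secreted ligand of Robo receptors and one of the most abundant transcripts of the list, was read at 1068 and 1729 CPM (ratio 1.62, 1.55 to 1.69). Its receptor Robo2 was read at 315 and 199 CPM, 1.58-fold lower, and Robo1 at 715 and 750 CPM. Robo2 was lower in female nuclei alone, at 374 and 84.2 CPM (ratio 0.225, 0.179 to 0.279), and higher in male nuclei, at 161 and 411 CPM (2.55, 2.14 to 3.04). Ephb1, a receptor of ephrin-B ligands, was read at 421 and 251 CPM, 1.68-fold lower (1.51 to 1.86), whereas Epha5 was higher. Sema6a was higher (45.1 and 72.6 CPM), with ratios of 0.963 in male and 1.76 in female nuclei, and Sema4f lower (51.8 and 33.9 CPM). For Slit3 the ratio was 0.841 in NB1 and 1.32 in GCimm2.

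Of 84 adhesion molecules 63 were compared, 5 being higher and 3 lower with a median log2 ratio of 0.06, beside 1.38% higher and 3.39% lower over all genes. Tenm2, a teneurin and partner of latrophilins, was the most abundant of the 5, at 4363 and 6660 CPM (ratio 1.53). Cntn5, a contactin, was read at 159 and 312 CPM, Edil3 at 295 and 500 CPM and Lingo2 at 309 and 518 CPM. Nrxn3, a presynaptic neurexin, was lower at 255 and 154 CPM, as were Cntnap4 and Kirrel. Cntn5, Lingo2 and Tenm2 went in opposite directions by sex. In female nuclei their ratios were 3.03, 2.50 and 1.94, and in male nuclei 0.722, 0.676 and 0.902.

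Several other calls named above were met in nuclei of 1 sex only. In male nuclei the ratio lay within the fold for Slit3 (1.31), Edil3 (1.35), Kirrel3 (1.4), Pcsk5 (1.27), Sez6l (1.42), Snx32 (0.729), Sema4f (0.780) and Kirrel (1.16). In female nuclei it lay within the fold for Nrxn3 (0.690). Only for Slit3 (1.21 to 1.42) did the male interval lie wholly within the fold. Those of the other genes reached past it, as for Pcsk5 (0.786 to 1.97) and Kirrel (0.646 to 1.97). The female interval of Nrxn3 (0.584 to 0.811) did so too. The male nuclei of w4 held 457641 UMIs and the female ones 1009311.

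Along pseudo-time the difference had the same sign in every bin for 10 of the 12 genes plotted, Igfbpl1 and Grin2a being the other two. The 12 were picked after their levels had been seen. Slit3 was read at 1046, 1236, 1060 and 896 CPM in w2 over the bins 14.5 to 16, 16 to 17, 17 to 18 and 18 to 19.6, and at 1643, 1912, 1680 and 1623 CPM in w4. The w4 values lay above every w2 value. Tac2 stood at 64.7, 56.7, 77.7 and 57.2 CPM in w2, so the w2 nuclei kept it to the end of the cluster. In w4 it stood at 25.0 CPM in the first bin (3 UMIs, 5.16 to 73.1 CPM). In the last it stood at 2.29 CPM (1 UMI, 0.0579 to 12.8 CPM), so its course along w4 rests on very few molecules. Ephb1 was close in the first bin (282 and 234 CPM) and apart in the last (541 and 224 CPM), having increased along pseudo-time in w2 and not in w4. Kcnq5 declined along the axis in both weeks, from 584 to 218 CPM in w2 and from 409 to 156 CPM in w4 with 105 CPM in the bin before the last. Grin2a, an NMDA receptor subunit, was read at 244, 321, 492 and 635 CPM in w2 and at 142, 303, 391 and 648 CPM in w4. It climbed in both weeks, with w4 lower in the bin from 17 to 18 (intervals 468 to 516 and 342 to 444 CPM) and level in the last. The first w4 bin held 37 nuclei, and its intervals are wide.

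**Figure D4:**
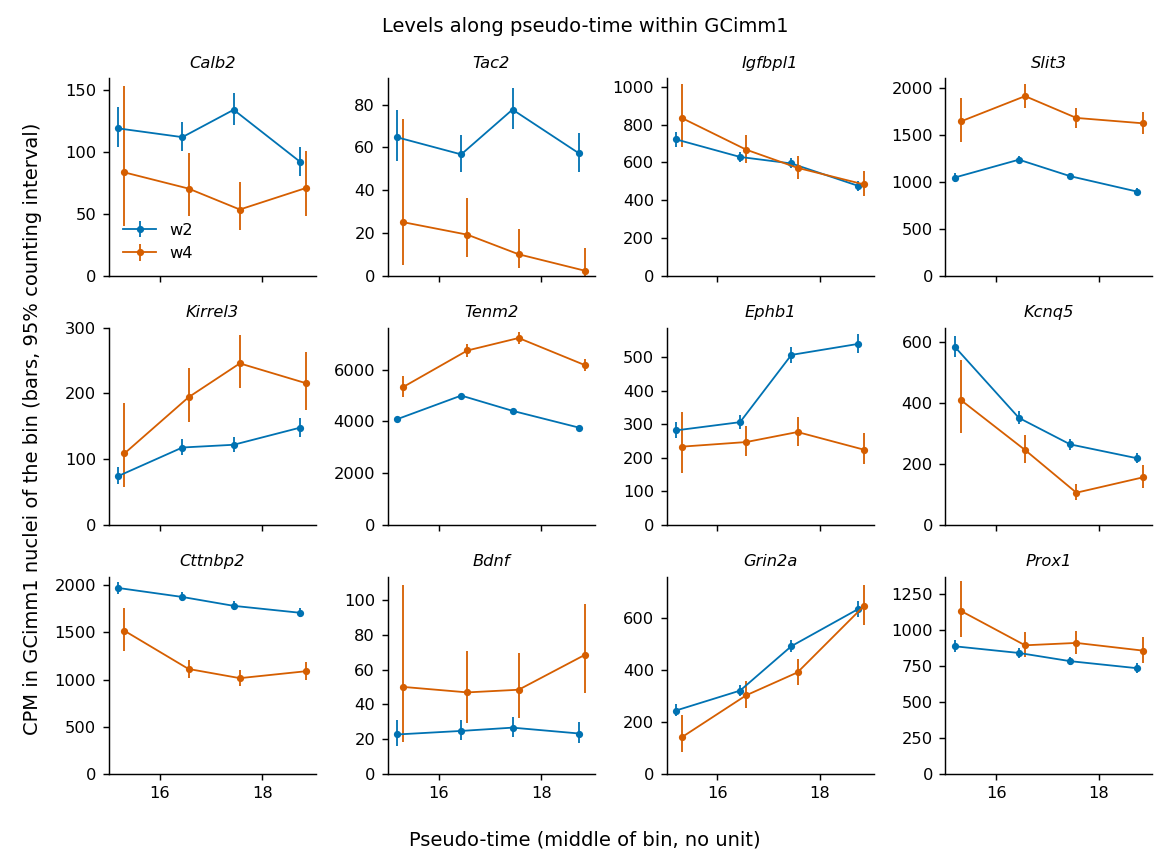
Level of 12 genes (y axes, CPM, each from 0) in GCimm1 nuclei of 4 pseudo-time bins (x axis, no unit) in w2 (blue) and w4 (orange), with 95% counting intervals. Slit3 and Tenm2 lie higher and Tac2 and Cttnbp2 lower in w4 throughout, whereas Igfbpl1 and Grin2a change sign between bins.

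Over the 7 lists of excitability and synapse genes, the calls stand beside 4.77% of all genes past the fold in either direction. None of 17 calcium channel genes, 7 sodium channel genes, 20 glutamate receptor genes or 12 GABA receptor genes of the study's own lists passed it. Those lists had been drawn up on these libraries. Of 35 potassium channel genes, Kcnip4 (a Kv4 channel auxiliary, 78.2 and 136 CPM) and Kcng2 were higher and Kcnq5 lower. In female nuclei alone, Kcnip4 (1.36) and Kcng2 (1.47) lay within the fold. Among 33 presynaptic genes, Syt2 (a fast calcium sensor of release, 46.9 and 22.2 CPM) and Snap23 were lower, and among 21 postsynaptic genes Sdc3 was lower. The ratio of Snap23 passed the fold in female nuclei only, but the male interval reached past it (0.768, 0.395 to 1.38). The median log2 ratios of these 7 lists lay between -0.07 and 0.18.

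Activity and stress lists held few genes above the minimum, and their counts stand beside 1.38% higher and 3.39% lower over all genes. Of 32 activity-regulated genes 5 were compared, and 2 of them were higher. Bdnf, the neurotrophin, was read at 24.6 and 53.5 CPM (ratio 2.18, 1.69 to 2.78), with ratios of 3.96 in RGL and 2.19 in GCimm2. The study described Bdnf as expressed only in GCmat2, a small mature cluster found from w4 onward, with Acvr1c among its markers. Whether RNA of other nuclei entered the values of Bdnf and Acvr1c was not tested. Acvr1c, an activin receptor, was read at 18.6 and 43.7 CPM (2.34, 1.76 to 3.09), with a ratio of 1.48 in male nuclei. It met the minimum of 20 CPM only through w4. The immediate early gene Egr1 had 10 UMIs in w2 and 13 in w4, or 0.914 and 8.00 CPM, and Homer1 was level at 105 and 107 CPM. Of 9 clock genes none passed the fold. Klf9, a glucocorticoid-induced Krüppel-like factor of granule cell maturation, was higher (19.2 and 30.2 CPM) and the metallothionein Mt1 lower (47.8 and 24.6 CPM) among 5 glucocorticoid-induced genes. Of 12 heat and cold shock genes the chaperone Hspa5 alone was past the fold (ratio 1.65).

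Most housekeeping and regulatory lists had medians near 0, and the calls named next stand beside 4.77% of all genes past the fold. Of 65 ribosomal protein genes, Rps3a1 was higher and Rps19, Rps27 and Rps29 lower, Rps29 in female nuclei only (male ratio 0.699). Ribosomal protein genes have many near-identical pseudogenes and multimapping reads were left out, so these 4 are uncertain. Of 48 nuclear respiratory chain genes, Atp5g3 and Ndufb9 were higher. The ratio of Ndufb9 passed the fold in female nuclei only, but the male interval reached past it (1.24, 0.685 to 2.11). Of 58 transcription factors, Klf9 was higher and Foxo3 (43.9 and 27.7 CPM, female ratio 0.685) lower, and of 35 cytoskeleton and growth cone genes Tmsb10, a thymosin, was lower (47.0 and 29.5 CPM), with ratios of 1.08 in male and 0.510 in female nuclei. Of 15 long non-coding and imprinted transcripts Snhg11 passed the fold, and the median log2 ratio of that list was -0.30. Of 3 dorsal granule cell markers, 2 were compared and Gsg1l was lower (88.6 and 50.5 CPM), with ratios of 0.372 in female and 0.995 in male nuclei. The 4 ventral markers were all under the minimum, with 174 and 26 UMIs in sum.

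**Figure D5:**
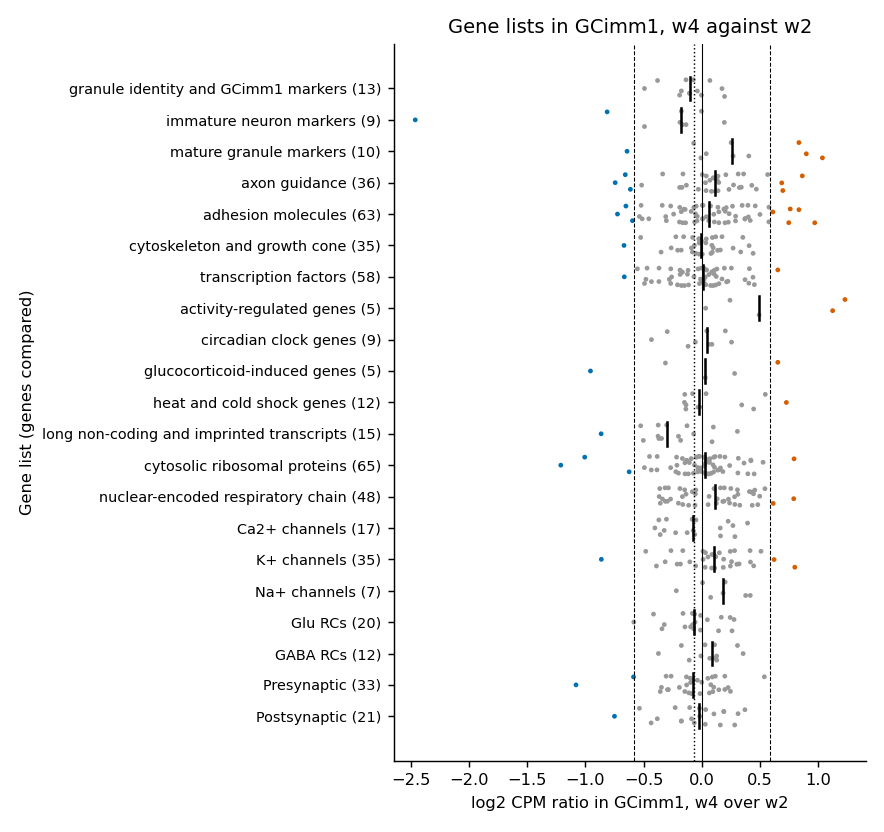
log2 CPM ratio of w4 over w2 (x axis) for the genes compared of each list with at least 5 of them (y axis, number in brackets). Points past the fold of 1.5 are orange or blue, bars are list medians, dashed lines mark the fold and the dotted line the median of all genes, -0.07. The list medians run from -0.30 for the long non-coding and imprinted transcripts to 0.49 for the 5 activity-regulated genes.

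Of 8 marker lists of other cell types, 8 genes in all were above the minimum and none of them passed the fold, which 4.77% of all genes did, so 8 genes are too few to read from. The astrocyte and radial glia list summed to 419 CPM in w2 and 393 in w4, the oligodendrocyte list to 92.7 and 83.7, the microglia list to 57.1 and 45.5 and the interneuron list to 102 and 115. Cycling progenitor markers summed to 31.7 and 38.2 CPM and CA pyramidal markers to 9.23 and 8.00. Oligodendrocyte precursor markers summed to 13.8 and 13.5 CPM and vascular markers to 7.58 and 4.31. The vascular sums rested on 83 and 7 UMIs.

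The maturation steps seen in the other 2 libraries were used to place the contrast. Genes that were at least 2 times as high in GCimm1 as in NB1 of w1 (219 compared) had a median log2 ratio of 0.07, with 10 higher and 5 lower between weeks. Those at most 0.5 times as high (138 compared) had one of -0.03, with 8 higher and 6 lower. In male and female nuclei alone this second median was -0.24 and 0.065. GCimm1 of w1 held 129 nuclei and 655055 UMIs. Its nuclei with a sex call were 96.1% male, against 54.5% in NB1 of w1. Both early lists thus also set mostly male against mixed nuclei. Genes at least 2 times as high in GCyoung as in GCimm2 of w8 (409 compared) had a median of -0.03. GCimm2 of w8 held only 28 nuclei and 150112 UMIs, so both late lists rest on few molecules. Of the 409, 20 were higher (4.89%) and 12 lower (2.93%). Those that were lower in GCyoung (802 compared) had one of -0.08, with 8 higher (0.998%) and 25 lower (3.12%), and both late lists had lower shares at or under the 3.39% of all genes. The median of all genes compared was -0.07. The early rising list lay furthest above it, the early falling and late rising lists lay above it too, and the late falling list slightly below it. TMM scaling shifted all genes alike, so each list kept its place beside that median. With it, the medians of the early falling and late rising genes were positive, at 0.02 and 0.03. That of the late rising genes was also positive with nuclei thinned to 2000 UMIs (0.0086) and with a list at a ratio of 3 (0.06). Upward calls were 4.57% and 5.80% in the 2 early lists, beside 1.38% of all genes, and no test was made of these shares.

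Gene structure differed between the 2 sets past the fold, which were chosen by their ratio and are described without a test. The median gene length was 77.7 kb for the higher set, 25.5 kb for the lower set and 41.9 kb for all genes compared. In 5 groups of equal size by gene length, the median log2 ratio was -0.08, -0.12, -0.11, -0.06 and 0.01 from the shortest to the longest. It was -0.13, -0.11, -0.06, -0.01 and 0.08 in RGL, which share the libraries. In NB1 it was -0.13, -0.13, -0.11, -0.07 and 0.001, and in GCimm2 -0.03, -0.05, -0.05, -0.03 and -0.005. Of the lower set, 84.5% were protein-coding, against 95.2% of all. The 149 antisense transcripts had a median of -0.22 in GCimm1, and 11.4% of them were lower past the fold. Their median was -0.18 in RGL, -0.21 in NB1 and -0.23 in GCimm2.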

How the data were processed

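Nuclear RNA of sorted nuclei was measured with Chromium 3′ v3.1 libraries, 1 per week (w1, w2, w4, w8). The authors counted UMIs with STARsolo 2.7.4a (submitters' processing notes and methods) on GRCm38 over exons and introns, left out multimapping reads, and deposited whole counts for 45706 features. The authors removed doublets, low-quality nuclei and a further group of w4 nuclei, so no doublet caller was run here. The driver of CreERT2 is not reported here. The authors also deposited log2 expression, counts over scran size factors with 1 added, with the cluster and slingshot pseudo-time of each nucleus.

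Counts of the GCimm1 nuclei were summed per week, with depths of 10945220 (w2) and 1624674 (w4) UMIs, and given as CPM with exact Poisson intervals. Ratios have exact conditional intervals, and shares of nuclei exact Clopper-Pearson intervals, all at 95% and for counting error only. Where no UMI was seen, the upper limit is that of 3 counts. Genes compared were autosomal with a mean of at least 20 CPM. With 1 library per week no test was made, so past the fold means a ratio of at least 1.5 either way. Which weeks were processed on the same day is not given in the sources used here, so day and week cannot be told apart. Named genes were the 12 largest ratios in each direction with a mean of at least 50 CPM and 1 direction in nuclei of both sexes, and in each of 32 lists up to 4 genes past the fold. The members and lists were chosen with earlier results of these data known. Symbols come from the deposited features, and positions from GENCODE M21 (45143 features matched). Scripts were tested on simulated data. Alternatives were TMM and RLE factors, thinning, weighting by pseudo-time, each sex alone, other filters and folds, means per nucleus, the deposited log2 values and the deepest nuclei left out. Tools were Python 3.11.15, numpy 2.4.6, scipy 1.17.1, pandas 2.3.3, R 4.3.3 and edgeR 4.0.16, the last for scaling factors only.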

Additional observations from a re-analysis of the deposited data

Results flagged for a closer look

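For 5 genes the difference between weeks went one way in GCimm1 and the other in another cluster, each past 1.5 with a counting interval clear of 1. For 4 genes it went opposite ways in male and female GCimm1 nuclei, with both intervals clear of 1 but not always past 1.5. With 1 library per week none of these differences was tested. Snhg11 had a ratio of 0.549 in GCimm1 and 2.7 in NB1 (2.01 to 3.59), where w4 rested on 64 UMIs. Esr1 had a ratio of 0.0995 in GCimm1 and 4.58 in NB1 (1.23 to 14.7), the latter from 10 UMIs in w2 and 5 in w4. Kcnip4 had a ratio of 1.74 in GCimm1 and 0.371 in GCimm2 (0.351 to 0.391), with 78.2 and 136 CPM in GCimm1. Robo2 had a ratio of 0.634 in GCimm1 and 1.64 in NB1, and Tenm2 1.53 and 0.650. Cntn5 had a ratio of 0.722 in male GCimm1 nuclei (0.571 to 0.904) and 3.03 in female ones (2.68 to 3.41). Lingo2 had 0.676 in male (0.565 to 0.805) and 2.50 in female nuclei (2.29 to 2.74), Robo2 had 2.55 and 0.225 and Tenm2 0.902 and 1.94. The male nuclei of w4 held 457641 UMIs, and sex and animal cannot be told apart in a pool.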

How the results depend on the processing

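Counts past the fold followed depth and filters. The 95 higher and 233 lower genes became 205 and 435 with nuclei thinned to 2000 UMIs, 378 and 793 in male and 219 and 423 in female nuclei alone, and 602 and 1006 with sums thinned to equal depth (added after the data had been seen). They became 382 and 872 with a minimum of 5 CPM, 209 and 515 with 10, 36 and 45 with 50, and 2399 and 7281 without a filter. At a fold of 2 they were 23 and 29, and on the deposited log2 scale, where 1 is added before the log, 1 and 0. TMM, RLE, weighting by pseudo-time, means per nucleus and leaving out the deepest nuclei kept both counts within 1.5 times. The pseudo-time shift of 0.25 was 0.80 in male and 0.14 in female nuclei alone. The list of genes falling at the early step had a median log2 ratio of -0.24 in male and 0.065 in female nuclei. It and the list rising at the late step turned positive under TMM (0.02 and 0.03), which shifted all genes alike. Of 214 ratios of named genes under these settings, 170 lay within the main counting interval, 44 outside it and 0 on the other side of 1, which for the 12 genes of each direction was required of both sexes when they were chosen. Male nuclei gave 15 of the 44 and log2 values 22. No paired analysis was possible because each week is 1 library. Without replicates, no spread between animals could be given, and in w4 a gene at 20 CPM had 32.5 UMIs.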
